A study of Homo sapiens with 8 samples.

Results

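The genes described here build and load MHC class I molecules, the surface proteins that show peptides from inside a cell to CD8+ T cells. The set held 9 genes chosen by symbol, namely HLA-B, HLA-C, HLA-E, HLA-F, B2M, TAP1, TAP2, TAPBP and PSMB9, out of 58735 genes listed with raw counts. Each symbol had 1 row, and all 9 were among the 15135 genes with enough reads to be tested. They were measured by RNA-seq in 8 libraries of EPC2-hTERT, a telomerase-immortalised human esophageal epithelial line cultured in 3 dimensions at the air-liquid interface. Before that interface, the cells of all 8 libraries spent 2 days submerged on inserts and 5 days at 1.8 mM calcium. The 4 CTRL libraries came from control cells, for which the labels name no vector. The other 4, miR-155OE, came from a stable line made with a lentivirus that overexpresses the microRNA miR-155-5p, so the comparison was of 1 line with its control. The labels do not say whether the line was a clone or whether the libraries of a group were separate cultures, so a p-value here sets a difference against the spread among these libraries only, and that spread may be technical.

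A class I molecule consists of a heavy chain, the light chain B2M and a short peptide. Peptides are cut by the proteasome, in which PSMB9 replaces a constitutive subunit in cells exposed to interferon-gamma, and are carried into the endoplasmic reticulum by TAP1 and TAP2, the paired subunits of the TAP transporter. Tapasin, the product of TAPBP, holds the empty heavy chain beside the transporter until a peptide fits. HLA-B and HLA-C are polymorphic heavy chains, while HLA-E presents leader peptides of other heavy chains to the natural killer receptor NKG2A, and HLA-F is a less abundant, less variable heavy chain. Epithelial cells express the pathway at a resting level, and interferon-gamma raises it through regulators such as IRF1 and NLRC5.

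Libraries held 33443635 to 52746852 reads assigned to genes, and 3 reads, the floor used here for a gene not detected, were 0.0569 to 0.0897 CPM (counts scaled to a library of 1000000 reads) in a library. Mitochondrially encoded genes took 1.01% to 2.92% of reads. MIR155HG, the host gene of miR-155, had 0 reads in all 8 libraries; a lentiviral construct need not pass through that gene, so this row does not check the labels. All 10 squamous epithelial markers were tested, and with the replicate number as a block in edgeR, 2 of them, KRT4 and KRT13, fell. In that fit 5.17% of all genes were called lower, and neither marker passed on group alone. KRT4 averaged 95.4 ± 29.25 CPM across CTRL, against 17.3 ± 20.8 CPM in miR-155OE (SD, n = 4 each). KRT13 averaged 11.4 ± 6.32 CPM across CTRL, against 2.96 ± 3.58 CPM in miR-155OE (SD, n = 4 each). Of 13 immune markers 3 were tested, the leukocyte marker PTPRC had 1 read in all, CD3D, CD1C and NKG7 were at 0 reads, and the list summed to 9.23 to 10.2 CPM in CTRL, against 9.96 to 16.2 CPM in miR-155OE, with CD14 rising in the blocked fit. Of 6 fibroblast markers COL1A1 alone was tested, and it rose in the blocked fit, while COL1A2, COL3A1, DCN and LUM were at 0. The list summed to 92.9 to 145 CPM in CTRL, against 98.2 to 221 CPM in miR-155OE. Endothelial and melanocyte markers had 1 tested gene of 4 each, and neither passed the test. The part of these marker genes in the results below was not tested.

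The mature microRNA and the class I promoters are shown first, since the results turn on which of these near-identical genes moved. The RefSeq entry for hsa-miR-155-5p lies at chr21:25573983-25574006 on the plus strand of GRCh38.p14, and its seed, bases 2 to 8, is in capitals.
hsa-miR-155-5p: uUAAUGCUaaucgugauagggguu
Matches to this seed (AGCATTA, or GCATTAA, which ends in an A opposite base 1) were searched, on the transcript strand, in the longest 3′ UTR that GENCODE release 29 annotates for a gene. HLA-C, HLA-B, HLA-E, B2M, TAP1, TAP2, TAPBP and PSMB9 had 0 matches in UTRs of 53 bases (PSMB9) to 3491 bases (TAP2), and that of HLA-C was 420 bases long. HLA-F had 1 match, at position 651 of 1288 bases, shown with its flanks and with the match in capitals.
HLA-F site: tcaaaataaaaAGCATTAaacccctcaaa
Among the 12512 tested genes with an annotated 3′ UTR, 2199 (17.6%) held a match, with a median UTR of 1380 bases. A match is a description of letters and not a functional site, and the absence of one concerns only these letters in this window.

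Promoters of 300 bases, 250 before and 50 from the transcription start, came from RefSeq on GRCh38.p14 and show the reference haplotype, not sequence read from this line. Of the 9 genes, 8 had an entry, all but HLA-E. The promoters of HLA-B and HLA-C, TAP1 and PSMB9, and B2M are printed 5′ to 3′ on the strand of the gene. Capitals mark, on both strands, the interferon-stimulated response element or ISRE (GAAA, any 2 bases, GAAA), its shorter class I form (GAA, any 2 bases, GAAA), an NF-kB-like motif (GGGA, any base, T, any 2 bases, CC), CCAAT and the core TGACG of the cAMP response element.
HLA-B chr6:31357130-31357429, minus strand: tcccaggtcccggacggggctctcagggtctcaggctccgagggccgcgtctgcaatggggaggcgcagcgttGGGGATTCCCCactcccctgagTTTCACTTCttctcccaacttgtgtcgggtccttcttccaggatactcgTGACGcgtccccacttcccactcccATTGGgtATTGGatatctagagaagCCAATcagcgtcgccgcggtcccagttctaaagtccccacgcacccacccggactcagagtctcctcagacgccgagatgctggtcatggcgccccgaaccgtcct
HLA-C chr6:31272043-31272342, minus strand: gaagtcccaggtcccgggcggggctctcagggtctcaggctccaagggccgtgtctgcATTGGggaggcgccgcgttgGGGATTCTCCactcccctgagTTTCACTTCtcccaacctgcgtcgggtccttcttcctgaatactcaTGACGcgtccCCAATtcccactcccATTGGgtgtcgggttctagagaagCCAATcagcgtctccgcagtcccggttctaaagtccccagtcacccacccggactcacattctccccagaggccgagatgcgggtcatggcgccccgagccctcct
TAP1 chr6:32853655-32853954, minus strand: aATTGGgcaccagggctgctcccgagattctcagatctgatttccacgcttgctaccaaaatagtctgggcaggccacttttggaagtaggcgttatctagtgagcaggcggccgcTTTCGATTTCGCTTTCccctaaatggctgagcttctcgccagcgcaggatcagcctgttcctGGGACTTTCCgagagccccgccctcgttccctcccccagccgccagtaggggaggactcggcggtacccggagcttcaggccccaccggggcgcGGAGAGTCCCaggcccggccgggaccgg
PSMB9 chr6:32853942-32854241, plus strand: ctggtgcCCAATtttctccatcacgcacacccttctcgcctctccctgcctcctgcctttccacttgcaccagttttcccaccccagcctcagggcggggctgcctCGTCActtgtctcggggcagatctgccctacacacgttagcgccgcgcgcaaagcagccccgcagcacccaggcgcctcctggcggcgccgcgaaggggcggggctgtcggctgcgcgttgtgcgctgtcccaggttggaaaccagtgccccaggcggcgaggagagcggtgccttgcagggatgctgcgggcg
B2M chr15:44711267-44711566, plus strand: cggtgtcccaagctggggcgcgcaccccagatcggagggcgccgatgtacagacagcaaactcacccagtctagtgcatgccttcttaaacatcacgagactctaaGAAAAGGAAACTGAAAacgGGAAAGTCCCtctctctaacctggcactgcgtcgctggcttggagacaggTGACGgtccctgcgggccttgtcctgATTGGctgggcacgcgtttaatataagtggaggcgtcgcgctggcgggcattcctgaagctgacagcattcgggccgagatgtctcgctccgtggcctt
The HLA-B and HLA-C windows were 90.9% identical over aligned bases, with 269 identical bases, 27 mismatches and 8 gap bases, and both held the short ISRE form, reading TTTCACTTC in each. Their NF-kB-like stretches read GGGGATTCCCC in HLA-B and GGGGATTCTCC in HLA-C. The window of HLA-F was 82.4% identical to that of HLA-B. The full ISRE was present in the windows of HLA-F, B2M, TAP1, TAP2 and TAPBP, against 1255 of 35116 promoters of the same length (3.57%). The short form, which can overlap the full one, was in 7.66% of promoters, the NF-kB-like motif in 5.13%, CCAAT in 34.6% and TGACG in 24.6%. TAP1 and PSMB9 are transcribed away from each other from starts 488 bases apart, and the ISRE letters between them lie in the TAP1 window.

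In the control cells the heavy chain HLA-E was the most abundant of the 9 genes per deposited gene length. Its level was 195 ± 25.7 TPM (reads per length, scaled to a sum of 1000000; SD, n = 4), at percentile 96.9 of the 15719 protein-coding genes with reads. B2M, the light chain shared by all heavy chains, followed at 57.4 ± 4.89 TPM, HLA-C at 27.7 ± 4.30 TPM and HLA-B at 19.2 ± 1.98 TPM (SD, n = 4 each). Among the loading genes, TAPBP stood at 17.9 ± 3.35 TPM, TAP1 at 12.9 ± 1.57 TPM and TAP2 at 5.73 ± 0.576 TPM. HLA-F, at 1.57 ± 0.404 TPM, and PSMB9, at 0.618 ± 0.242 TPM and percentile 27.1, were the lowest. Between neighbours in this order, the CTRL libraries overlapped only for HLA-B with TAPBP and for TAPBP with TAP1. The deposited length counts every annotated exon base of a gene, 6079 for B2M, 2975 for HLA-E and 3072 for PSMB9. A single transcript can be shorter, so the order holds for these lengths only. HLA-E and PSMB9, the ends of the order, belong to the same pathway and lay far apart in level per length, as the plot of TPM shows.

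**Figure D1:**
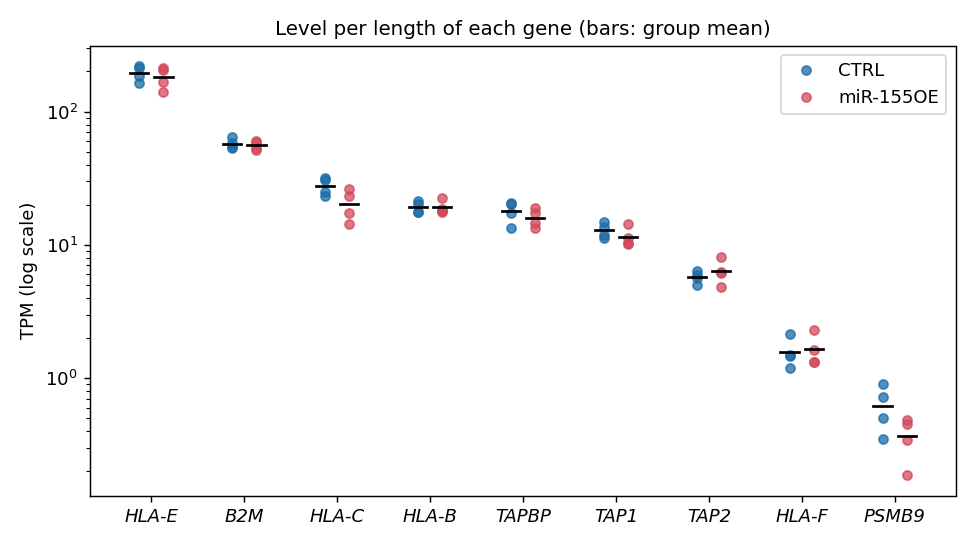
Level per deposited gene length (TPM, log axis) of the 9 genes in each of 4 CTRL (blue) and 4 miR-155OE (red) libraries, ordered by the CTRL mean, with bars at group means. HLA-E is highest, with a CTRL mean of 195 TPM, and PSMB9 lowest, at 0.618 TPM, and the red and blue points of every gene overlap.

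With miR-155-5p overexpressed, HLA-C was the only one of the 9 to pass the test, and only when libraries were paired by replicate number: edgeR then put it at 0.706 times its CTRL level, and it was lower in 4 of 4 pairs. Lower in 4 of 4 pairs held for 4 of the 9 genes (HLA-C, HLA-E, TAPBP and PSMB9), against 16.9% of all genes. On group alone, 0 of 9 genes passed an adjusted p of 0.05 in edgeR, where 3.22% of all genes tested did (1.05% with a lower level), and 1 of 9 (HLA-C) had an unadjusted p under 0.05, against 19.3% of all genes. DESeq2 (8.08% of genes called), limma voom (3.32%) and the authors' deposited table (4.73%) also called 0 of the 9. With the block, 1 of 9 passed, against 12.6% of all genes, and 4 of 9 had an unadjusted p under 0.05, against 28.3%. The share called was thus near the background for the genes as a group. In 7 of 9 the log2 fold change on group alone was below 0, as in 51.3% of all genes, and the median was -0.14, beside -0.01 over all genes. The 2 groups of libraries overlapped for all 9 genes, while they did not overlap for 11.4% of all genes (5.25% with a lower level). In bulk RNA, fewer cells of a type and less RNA per cell cannot be told apart, which applies to each difference given here.

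HLA-C, a polymorphic heavy chain recognised by T cells and by inhibitory receptors of natural killer cells, spans chr6:31268749-31272130 on the minus strand. Its level in CTRL libraries 1 to 4 was 27.7, 26.8, 22.1 and 20.6 CPM, and in miR-155OE libraries 1 to 4 it was 22.3, 18.6, 12.5 and 16.1 CPM. Every miR-155OE library was below the CTRL library of its number, and the groups overlapped because miR-155OE 1 lay just above CTRL 3 and above CTRL 4. HLA-C averaged 24.3 ± 3.50 CPM across CTRL, against 17.4 ± 4.13 CPM with overexpression (SD, n = 4 each). On group alone the log2 fold change was -0.48 (95% interval -0.85 to -0.12), with an adjusted p of 0.141 in edgeR. With the replicate block it was -0.50 ± 0.091 (SE; interval -0.71 to -0.30), with an adjusted p of 0.00901, and 5.17% of all genes were called lower in that fit. The authors' deposited table gave -0.48 with an adjusted p of 0.0655. Paired log2 differences were -0.31, -0.53, -0.82 and -0.35 for numbers 1 to 4. Leaving out each pair in turn, an alternative chosen after seeing the data, gave -0.56 to -0.40 with adjusted p of 0.0112 to 0.0320 in edgeR.

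HLA-B, the closest relative of HLA-C in the set, is annotated at chr6:31269491-31357188 on the minus strand, with a long transcript model that reaches into HLA-C. CTRL libraries 1 to 4 held 21.4, 22.7, 19.0 and 18.8 CPM, and miR-155OE libraries 1, 3 and 4 held 23.5, 18.5 and 20.6 CPM, with miR-155OE 2 the lowest of the 8 libraries. The libraries of both groups were interleaved, and the pairs split, with log2 differences of 0.14, -0.33, -0.03 and 0.13 for numbers 1 to 4. The log2 fold change was -0.02 (95% interval -0.25 to 0.21) with an adjusted p of 0.940 in edgeR, so changes within that interval were not distinguishable. The log2 ratio of HLA-C to HLA-B per kilobase, a comparison chosen after the values were seen and given with no test, averaged 0.52 ± 0.103 across CTRL, against 0.05 ± 0.276 with overexpression (SD, n = 4 each). It was lower in 4 of 4 pairs. HLA heavy chains are near-identical paralogs whose alleles differ from the reference, the alleles of this line were not typed here, and how reads were split between them is uncertain for each HLA gene named. HLA-B and HLA-C also share 35 annotated exon bases on the same strand.

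HLA-E, the heavy chain that reports class I supply to natural killer cells, lies at chr6:30489467-30494205 on the plus strand. Its CTRL libraries 1 to 4 held 220, 225, 196 and 171 CPM, and its miR-155OE libraries 1 to 4 held 207, 202, 170 and 156 CPM. Each miR-155OE library was below its numbered partner, by log2 differences of 0.09 to 0.20 in size, yet the groups overlapped widely because numbers 3 and 4 were low in both. The log2 fold change was -0.14 (95% interval -0.40 to 0.11) with an adjusted p of 0.546, and the blocked fit gave an adjusted p of 0.0981, both in edgeR. HLA-F, at chr6:29722775-29738528 on the plus strand, ranged from 1.83 to 3.23 CPM in CTRL and ran from 1.99 to 3.19 CPM in miR-155OE. Of its pairs 2 were lower and 2 higher, and its log2 fold change was 0.04 (95% interval -0.45 to 0.53) with an adjusted p of 0.9497 in edgeR. HLA-F shares 28.5% of its annotated exon bases with other genes on the opposite strand, and no strand setting is stated for the counting, so its reads and theirs cannot be told apart.

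B2M, whose protein pairs with every heavy chain above, lies at chr15:44711487-44718877 on the plus strand, away from the others. It ranged from 114 to 135 CPM in CTRL and ran from 109 to 133 CPM in miR-155OE, and the groups overlapped over nearly that whole range. Its log2 fold change was -0.06 (95% interval -0.24 to 0.13) with an adjusted p of 0.767 in edgeR, and 3 of 4 pairs were lower. This was the narrowest interval of the 9 genes on group alone.

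**Figure D2:**
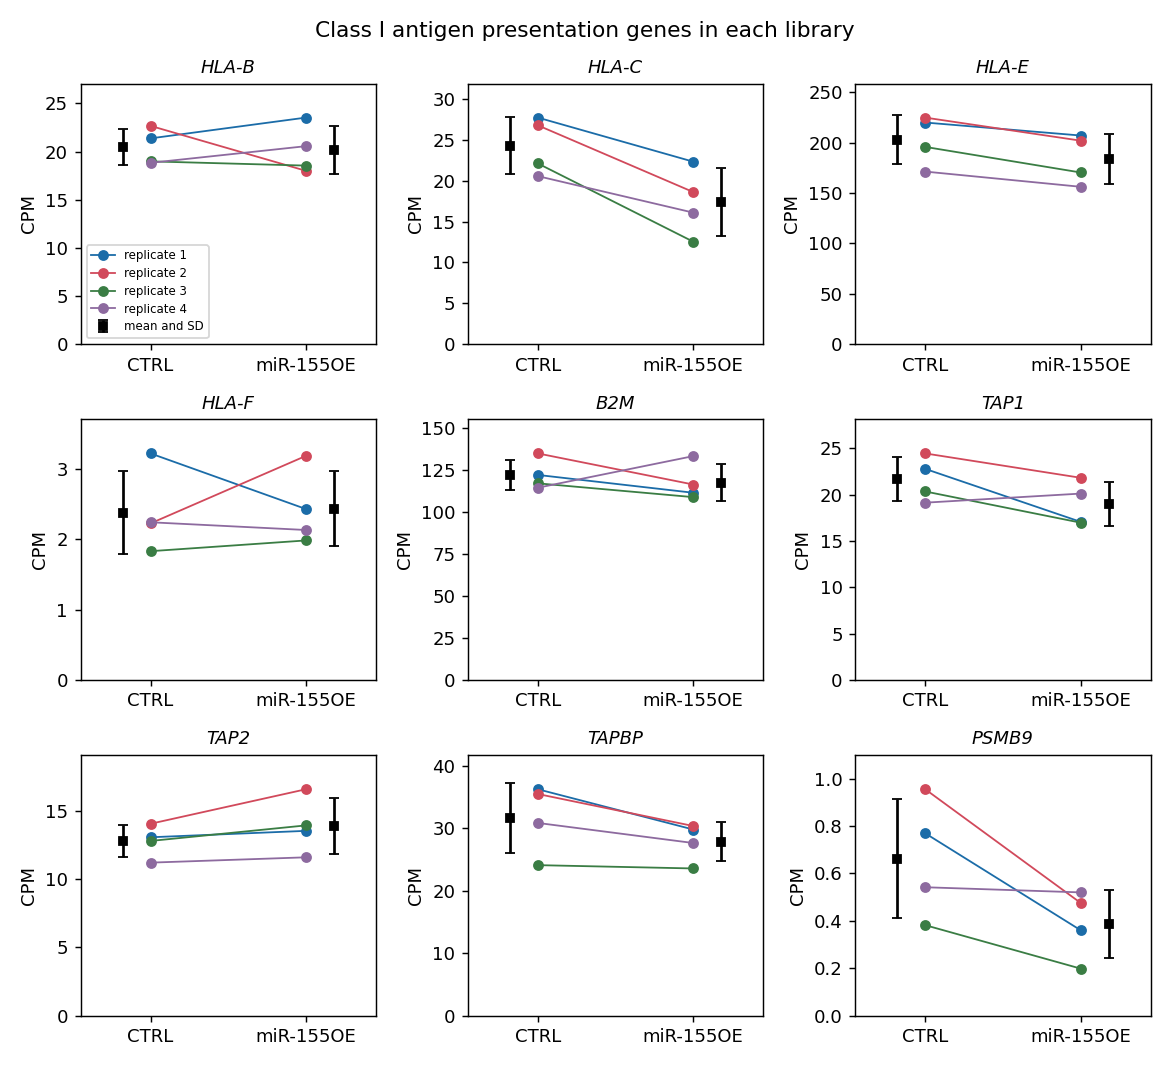
CPM of each of the 9 genes in CTRL and miR-155OE libraries, with lines joining libraries of the same replicate number and black squares at the mean with SD; each axis starts at 0. All 4 lines slope down for HLA-E, TAPBP, PSMB9 and HLA-C, the last from a mean of 24.3 to 17.4 CPM. For HLA-B and HLA-F 2 lines slope each way.

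Of the peptide transporter, TAP1 lies at chr6:32845209-32853978 and TAP2 at chr6:32821833-32838780, both on the minus strand. TAP1 in CTRL libraries 1 to 4 was at 22.8, 24.5, 20.4 and 19.1 CPM, and in miR-155OE libraries 1 to 4 at 17.1, 21.8, 17.0 and 20.1 CPM. TAP2 in the same order was at 13.1, 14.1, 12.8 and 11.2 CPM in CTRL, against 13.6, 16.6, 13.95 and 11.6 CPM in miR-155OE. TAP1 was lower in 3 of 4 pairs and TAP2 was higher in 4 of 4, with overlapping groups for both. The log2 fold change of TAP1 was -0.19 (95% interval -0.43 to 0.05; adjusted p = 0.389 in edgeR) and that of TAP2 was 0.12 (interval -0.14 to 0.38; adjusted p = 0.628). Higher in 4 of 4 pairs held for 18.8% of all genes, and lower in 4 of 4 for 16.9%. Of TAP2's annotated exon bases, 32.3% are shared with AL669918.1 on the same strand, which had 0 reads. Whether reads in those shared bases were counted for TAP2 was not checked, while its full length entered its TPM and the ratio of TAP1 to TAP2. Of TAP1's bases 9.49% are shared with PSMB8-AS1 on the opposite strand, where reads cannot be told apart either.

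TAPBP, which bridges the transporter and the heavy chain, lies at chr6:33299694-33314387 on the minus strand. Its CTRL libraries 1 to 4 held 36.2, 35.5, 24.1 and 30.8 CPM, and its miR-155OE libraries 1 to 4 held 29.8, 30.3, 23.6 and 27.6 CPM. All 4 pairs were lower, the lowest library of each group was number 3, and the groups overlapped. The log2 fold change was -0.18 (95% interval -0.48 to 0.11) with an adjusted p of 0.492, and 0.113 with the block, both in edgeR.

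PSMB9, the interferon-inducible proteasome subunit also known as LMP2, lies at chr6:32844136-32859585 on the plus strand. It was counted at 26, 33, 20 and 21 reads in CTRL libraries 1 to 4 and at 12, 17, 8 and 19 reads in miR-155OE libraries 1 to 4. On the CPM scale that was 0.769, 0.955, 0.382 and 0.542 in CTRL and 0.361, 0.476, 0.199 and 0.520 in miR-155OE. All 4 pairs were lower, by log2 differences of -1.09, -1.01, -0.94 and -0.06, so number 4 barely differed, and CTRL 3 lay below miR-155OE 2 and 4. Its log2 fold change had the largest size of the 9, -0.75, and the widest interval, -1.61 to 0.11, with an adjusted p of 0.330, and 0.155 with the block, both in edgeR. PSMB9 shares 5.66% of its annotated exon bases with neighbours, among them 139 bases with PSMB8 on the opposite strand. PSMB8 had 1486 reads over the 8 libraries, and with no strand setting stated its reads there and those of PSMB9 cannot be told apart, which bears on the ratio of PSMB9 to PSMB6 as well.

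**Figure D3:**
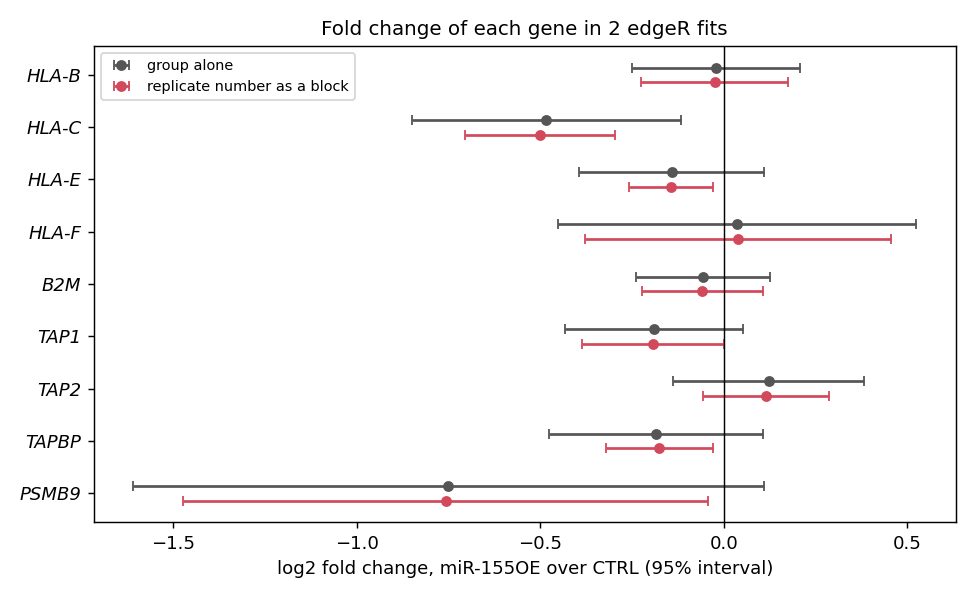
The log2 fold change of each gene, miR-155OE over CTRL, with 95% intervals, from edgeR on group alone (grey) and with the replicate number as a block (red). HLA-C is at -0.48 and -0.50, with the narrower interval in the blocked fit, and PSMB9 has the widest intervals.

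Ratios within a library, which need no scaling between libraries, were taken for 4 pairs of subunits from counts per kilobase. The inducible proteasome subunits were far below the constitutive subunits whose places they take. The log2 ratio of PSMB9 to PSMB6 averaged -8.14 ± 0.566 across CTRL, against -8.93 ± 0.660 with overexpression (SD, n = 4 each), a difference of -0.79 that was lower in 4 of 4 pairs (exact permutation test, two-sided, p = 0.143; adjusted over 4 ratios 0.286). Without miR-155OE 3 that difference was -0.47, and over all fits without 1 library it ran from -1.004 to -0.474. That of PSMB8 to PSMB5 differed by -0.14 (exact permutation p = 0.429, adjusted 0.571) and that of PSMB10 to PSMB7 by -0.02 (exact permutation p = 0.943, adjusted 0.943). Without 1 library the difference ran from -0.21 to -0.03 for PSMB8 to PSMB5, smallest without miR-155OE 3 (-0.03) and CTRL 2 (-0.05) and largest without CTRL 4, and from -0.23 to 0.13, with a change of direction, for PSMB10 to PSMB7. The log2 ratio of TAP1 to TAP2 averaged 1.17 ± 0.062 across CTRL, against 0.86 ± 0.233 with overexpression (SD, n = 4 each), a difference of -0.31 (exact permutation p = 0.0857, adjusted 0.286). For TAP1 to TAP2, miR-155OE 1 to 3 lay at 0.70 to 0.81, below all CTRL libraries, and miR-155OE 4 at 1.21, within them. With 4 against 4 libraries the smallest p this test allows is 0.0286, and with 4 pairs it is 0.125.

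**Figure D4:**
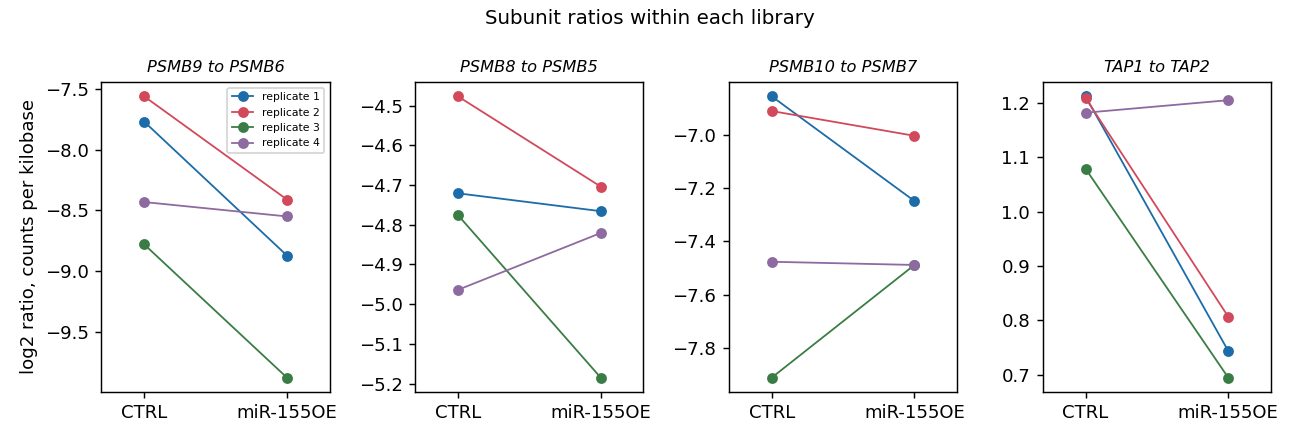
Log2 ratio of counts per kilobase within each library for 4 subunit pairs, with lines joining libraries of the same replicate number; each panel has its own axis, which does not start at 0. PSMB9 to PSMB6 slopes down in all 4 pairs, and TAP1 to TAP2 in 3 of 4.

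The rest of the pathway was described from 7 lists with 80 tested genes. On group alone edgeR called 0 of the 80, against 3.22% of all genes, and DESeq2 called 5, where it called 8.08% of all genes. With the block 9 passed (11.2%, against 12.6% of all genes), of which 6 rose and 3 fell. Only 3 of those 9, RAET1G, OASL and GBP1, passed in each fit that left out 1 pair, and the other 6 missed the threshold in at least 1 of these fits, which hold fewer libraries. Each value below is from the blocked edgeR fit.

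Among 11 peptide supply genes, LAP3, an aminopeptidase that trims peptides in the cytosol, rose by 0.29 on the log2 scale (adjusted p = 0.0423) and the other 10 did not pass. It passed in 1 of the 4 fits that left out a pair. None of 7 loading genes passed. Of these the abundant chaperones HSPA5, at 1165 ± 108 CPM in CTRL, and CANX, at 492 ± 24.9 CPM (SD, n = 4 each), had log2 fold changes of -0.02 and 0.08. None of 13 class I regulators passed, and NFYA, a subunit of the factor that binds CCAAT, had a log2 fold change of 0.09 (adjusted p = 0.391). IRF1 and NLRC5, named after their values were seen because they drive class I genes, had log2 fold changes of -0.30 (adjusted p = 0.149) and -0.10 (adjusted p = 0.848), and NLRC5 stood at 0.809 ± 0.271 CPM in CTRL (SD, n = 4). Median log2 fold changes of these 3 lists were -0.02, -0.04 and -0.06, near the -0.01 of all genes.

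Of 12 interferon reception genes 11 were tested, and 2 rose, where 12.6% of all genes were called in either direction. The list's median log2 fold change was 0.095, beside -0.008 over all genes. Unadjusted p in edgeR was under 0.05 for 7 of the 11, in both directions, against 28.3% of all genes. Of these 7, IFNAR1 (log2 fold change -0.20, adjusted p = 0.0511) and SOCS1 (-0.45, adjusted p = 0.0608) were lower in 4 of 4 pairs. These 2 were named after their values were seen, and the rest of the 7 had log2 fold changes above 0. IFNLR1, the receptor chain for interferon-lambda, rose by 0.29 (adjusted p = 0.0251) and SOCS3, a feedback inhibitor of cytokine signalling, rose by 0.38 (adjusted p = 0.0407). Neither passed in any fit that left out a pair, where adjusted p reached 0.0896 and 0.198. Of 12 MHC class II genes only 3 were tested and none passed. HLA-DQB1, the highest at 5.56 ± 0.553 CPM in CTRL (SD, n = 4), and CIITA, the master regulator of class II genes, had log2 fold changes of 0.06 and -0.20. The whole class II list summed to 6.1 to 7.4 CPM in CTRL, most of it HLA-DQB1. The partner chain HLA-DQA1 had 2 reads over the 8 libraries, and HLA-DPB1 and HLA-DOA had 0. The source of the HLA-DQB1 reads was not tested.

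Of 18 other class I genes and ligands of natural killer receptors 15 were tested, and 3 passed, where 12.6% of all genes did. All 3 were ligands of the activating receptor NKG2D. MICB, ULBP2, ULBP3 and RAET1E, also such ligands and named after their values were seen, did not pass. Their log2 fold changes were -0.79, 0.28, 0.22 and -0.17. MICA was at 18.3, 18.4, 13.3 and 9.78 CPM in CTRL 1 to 4 and at 10.4, 13.7, 9.66 and 7.58 CPM in miR-155OE 1 to 4, and fell by 0.52 on the log2 scale (adjusted p = 0.00883). RAET1G was at 15.95, 15.7, 23.1 and 18.8 CPM in CTRL, against 12.4, 9.54, 15.0 and 14.1 CPM in miR-155OE, and fell by 0.53 (adjusted p = 0.00508). ULBP1 was at 1.39, 2.52, 1.51 and 1.03 CPM in CTRL, against 3.46, 3.42, 2.88 and 2.30 CPM in miR-155OE, and rose by 0.94 (adjusted p = 0.0138). The 3 that passed therefore moved in both directions. Their groups overlapped for MICA and ULBP1 and were apart for RAET1G, as for 11.4% of all genes. MICA missed the threshold in 1 of the 4 fits without a pair, and ULBP1 in 2.

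Of 32 interferon-stimulated genes 20 were tested, and 2 rose and 1 fell, where 12.6% of all genes were called in either direction. The list's median log2 fold change was -0.22, beside -0.008 over all genes. Unadjusted p in edgeR was under 0.05 for 6 of the 20, against 28.3% of all genes. OASL, an antiviral oligoadenylate synthetase-like protein, was at 20.4, 13.8, 25.0 and 26.9 CPM in CTRL, against 41.4, 17.6, 94.8 and 57.5 CPM in miR-155OE, and rose by 1.13 (adjusted p = 0.00764). OAS3, which makes the messenger that activates RNase L, rose by 0.41 (adjusted p = 0.0388) and passed in 0 of the 4 fits without a pair. GBP1, an interferon-gamma-induced GTPase, was at 3.05, 2.46, 6.61 and 7.15 CPM in CTRL, against 1.23, 1.43, 2.11 and 3.26 CPM in miR-155OE, and fell by 1.24 (adjusted p = 0.00284). All 4 pairs of GBP1 were lower and all 4 of OASL higher, although both genes are interferon-stimulated.

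**Figure D5:**
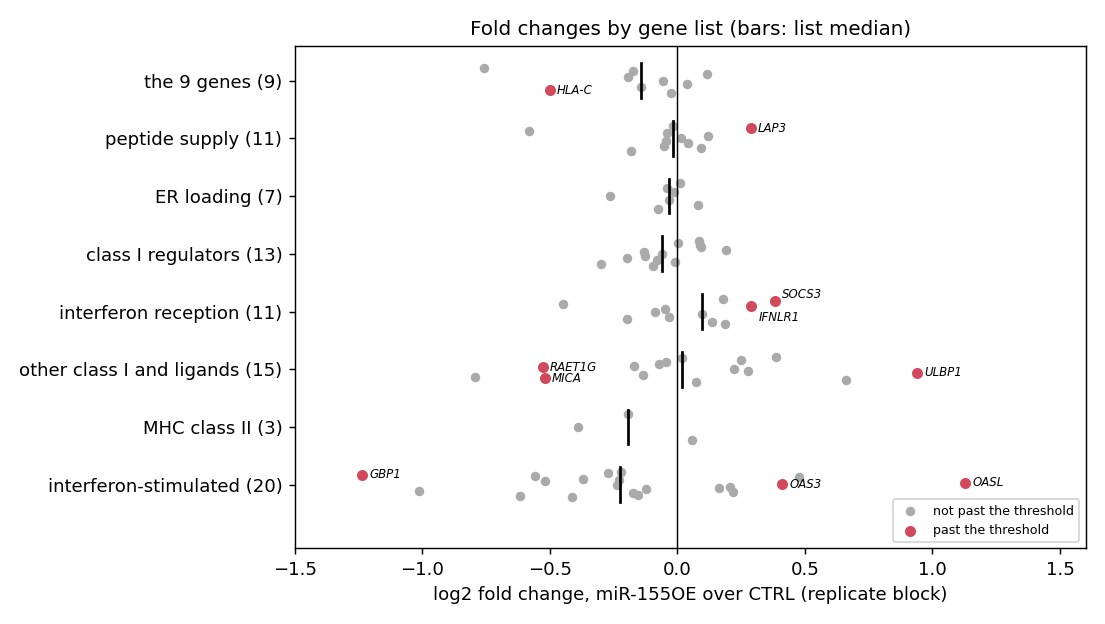
Log2 fold change with the replicate block of the 9 genes and of the tested members of 7 lists, with bars at list medians, red points past an adjusted p of 0.05 in edgeR and grey points not past it. HLA-C is the only red point of the 9, and red points of the lists lie on both sides of 0, from GBP1 at -1.24 to OASL at 1.13.

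Genes around HLA-C moved in both directions. Within 500 kilobases of it 32 genes were tested. Only PSORS1C2, a neighbour of the corneodesmosin gene CDSN, passed on group alone (3.12%, near the 3.22% of all genes). The median log2 fold change on group alone was 0.00. With the block 6 passed (18.8%, against 12.6% of all genes), of which 3 fell (9.38%, against 5.17%). From HLA-F to TAPBP on chromosome 6, 113 genes were tested, among them all of the genes described here but B2M, and the median was -0.03. With the block 9 of the 113 passed (7.96%, against 12.6% of all genes), of which 6, HLA-C included, fell (5.31%, against 5.17%), shares below or near the background.

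Across the 8 libraries the 9 genes varied with the replicate number as well as with the group. Their mean z score of log2 CPM was 0.86 and 1.05 in CTRL 1 and 2 but -0.41 in both CTRL 3 and CTRL 4, and it was 0.00, 0.28, -1.06 and -0.32 in miR-155OE 1 to 4. Numbers 1 and 2 were thus higher than 3 and 4 within each group, and miR-155OE 4 was the only one above its partner. As a description over 8 libraries, which share group, depth and replicate number, TAPBP followed the mean of the other 8 genes most closely (Pearson correlation 0.863), then PSMB9 (0.843), HLA-C (0.772) and TAP1 (0.765), and TAP2 least (0.153). Among 10284 genes with a mean of at least 4 CPM, those whose profile was among the most like the mean of the 9 were LMAN2 (0.985), GALC (0.975), PAQR7 (0.974) and RUSC1 (0.972).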

How the data were processed

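RNA of EPC2-hTERT cells was sequenced in 4 CTRL and 4 miR-155OE libraries. Per the labels' protocols, cells spent 2 days on inserts (0.4 µm pores) and 5 days at 1.8 mM calcium before the air-liquid interface. HISAT2 2.0.5, featureCounts 1.5.0-p3, DESeq2 and GRCh38 are given per the submitters' processing notes. A strand setting is not given in the sources used here. The authors deposited raw counts per gene and, in a second table, a normalised signal, log2 fold changes and p-values, per the file headers. From the values, that signal is the count divided by 1 size factor per library.

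Counts were fitted in R 4.3.3 with edgeR 4.0.16 (filterByExpr, TMM, quasi-likelihood F test on group alone, Benjamini-Hochberg adjustment over 15135 genes at 0.05). Each SE was derived from the fold change and its F statistic, so intervals restate the test. CPM used TMM-scaled library sizes and TPM the deposited gene lengths. Alternatives were the replicate block, RLE size factors, no filter, DESeq2 1.42.0, limma 3.58.1 voom and leaving out each library. Positions are those of the deposited file on GRCh38, where 58724 of 58735 genes share start and end with GENCODE release 29. Sequences came from RefSeq and GENCODE tables. Of the gene fits above, only edgeR on group alone was run on simulated counts, which were drawn with no effect of replicate number. The blocked fit, from which the call of HLA-C comes, was not tested in this way.

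Deviations of same-numbered libraries from their group means correlated at 0.578, 0.497, 0.184 and 0.607 across 10267 genes. All were over 0.1, and by that rule the numbers were taken to pair the libraries, although the labels do not say what a number shares. Unlike numbers passed 0.1 as well: CTRL 1 with miR-155OE 2 (0.275), CTRL 2 with miR-155OE 1 (0.267), CTRL 3 with miR-155OE 4 (0.203) and CTRL 4 with miR-155OE 3 (0.399). Both libraries numbered 3 thus correlated more with a library numbered 4 than with each other. The rule therefore does not establish the pairing on which the blocked fit rests. Libraries of a group differed by more than counting error, since chi-square divided by its degrees of freedom was 15.8 to 82.5 over 12 pairs of libraries.

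The 9 genes and the lists were chosen with earlier results of these data known. All 9 genes are named, with, from each list, every gene past the threshold on group alone or with the block, up to 6 by lowest p, or else the 2 of highest mean CPM over both groups. A few genes that these rules would name are not reported here.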

Additional observations from a re-analysis of the deposited data

How the results depend on the processing

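Over all genes, 488 passed on group alone, 1908 with the replicate block, 927 with no filter on low counts, 1223 with DESeq2, and 125 to 1274 when 1 library was left out, the most without miR-155OE 2. The block without 1 pair, chosen after seeing the data, gave 623 to 2059 (2059, 1389 and 971 without pairs 2, 3 and 4). RLE size factors (517) and limma voom (503) stayed within 1.5 times. Of the 9 genes, 1 (HLA-C) passed with the block and in each blocked fit without a pair (1 to 1), and 0 in each unblocked fit without a library (0 to 0). The block changed no other call among the 9. Of the 80 list genes, 9 passed with the block, 4 with no filter, 5 with DESeq2, 0 to 2 without 1 library and 4 to 7 with the block without 1 pair.

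Of 153 values of the 9 genes under alternatives, 140 kept their direction and side of the threshold, 5 (HLA-C) newly passed it and 8 turned direction. The last were HLA-B, -0.103 to 0.033 without 1 library and 0.076 with the block without pair 2, and HLA-F, -0.12 to 0.22 and -0.12 likewise. The log2 ratio of PSMB10 to PSMB7 ran from -0.23 to 0.13 without 1 library, that of PSMB9 to PSMB6 from -1.004 to -0.474 and that of PSMB8 to PSMB5 from -0.21 to -0.03. The cause was not tested. PSMB9 had the fewest reads of the 9 genes, 8 to 33 a library; counting error and other spread were not separated.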
